A study of Mus musculus with 2 samples.

Results

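The genes described here code for the B cell antigen receptor's signalling chains and for proteins that carry, amplify or restrain its signal. The group holds 33 genes, chosen by name from knowledge of the pathway and with earlier results of these data known. The deposited count tables hold 32285 genes, and all 33 were found there. They were sorted by role: 2 receptor chains, 4 surface partners, 5 inhibitory receptors and phosphatases, 4 kinases, 7 adaptors and 11 effectors. Their transcripts were counted in single spleen cells of the mouse, within each class of B cells and in the other cell types of the same libraries. The study compared 1 library of wild-type splenocytes with 1 library of splenocytes from mice carrying the M694I knock-in of Mefv, the gene of the inflammasome sensor pyrin; the mice were age-matched and kept free of specific pathogens, and the age itself, sex, strain, zygosity and number of mice per library are not stated in the labels. In both groups whole spleens were broken up mechanically, red cells were lysed, and the labels' protocols describe no sort or gate before the cells were loaded. A transcript molecule was counted by its unique molecular identifier (UMI), and levels are UMIs per 1000000 UMIs of a cell class (CPM).

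The B cell receptor is an immunoglobulin held in the membrane together with the Cd79a and Cd79b chains, whose cytoplasmic tails carry the signal. When antigen binds, the kinases Lyn and Blk phosphorylate these tails, Syk docks there, and the adaptor Blnk brings Btk and Plcg2 together, from which calcium, protein kinase C, NF-kB and Ras signals follow. Inhibitory receptors such as Cd22, Cd72 and Siglecg recruit the phosphatases Ptpn6 and Inpp5d and set a limit to the response. In the spleen the pathway works in follicular, marginal zone, B-1 and newly arrived transitional B cells, while plasma cells secrete antibody and keep little of the receptor machinery.

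After filtering, 9511 wild-type and 8409 knock-in cells remained, with medians of 2527 and 2023 UMIs, so the knock-in library was the shallower. Each genotype had a single library, so the genotype could not be tested: every interval is a 95% interval for counting error only, and each ratio compares these libraries, not the conditions. The change is in the coding sequence and the tags come from transcript 3' ends, so Mefv itself (144 wild-type and 77 knock-in UMIs) does not check the labels. Barcodes found in both libraries numbered 27, of which 21 were among the kept cells. B-like cells numbered 6439 (67.7% of kept cells) and 5619 (66.8%). Sub-clusters made without the 33 genes gave 6 classes, with wild-type and knock-in cell numbers of 2276 and 1978 for follicular-like, 913 and 762 for cluster 3, 543 and 346 for marginal zone-like, 576 and 243 for activated-like, 255 and 261 for B-1-like and 34 and 158 for plasma-like cells. Cluster 3 had the highest score on the list of transitional markers, but 4 haemoglobin genes and only 1 transitional marker (Sox4) were among its 10 leading genes, so it is given by its number and not as a named stage. Its transitional markers summed to 1302 CPM (wild-type) and 1754 CPM (knock-in), against 457 and 569 CPM in follicular-like cells. Haemoglobin genes were not among the genes used for clustering. The other B-like cells lay in 4 clusters with no stage name (cluster 0 with 988 and 1510 cells, cluster 5 with 673 and 164, cluster 8 with 106 and 166, cluster 10 with 75 and 31). The follicular-like class joined 2 clusters in unequal parts: cluster 1, led by Lmna and Cdkn1a, held 893 cells of the wild-type and 1295 of the knock-in library, and cluster 2, led by Abca1, Ccnd3 and Cd200, held 1383 and 683. Each had 0 follicular markers among its 10 leading genes, so the name rests on their scores, 0.854 and 0.857. Clusters 0 and 5 scored higher on the follicular list, at 0.967 and 0.868. They stayed unnamed because 1 marker of another stage, and 0 follicular markers, were among their leading genes. Cluster 10 scored 0.963 on the marginal zone list, above the 0.762 of the marginal zone-like class. It stayed unnamed because 3 markers of another stage, and 2 marginal zone markers, were among its leading genes.

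Several measures of the libraries moved with the genotype and stand beside every genotype ratio below. In follicular-like cells the median depth was 2126 UMIs in wild-type and 1660 in knock-in cells, the median mitochondrial share was 4.97% and 4.21%, and the nuclear RNA Malat1 stood at 31848 and 20949 CPM. In cluster 3 the 8 erythroid markers summed to 44.8 CPM (wild-type) and 1342 CPM (knock-in), and haemoglobin genes were among the leaders of that cluster. Their part in the genotype ratios was not tested.

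The promoters printed here were chosen because they belong to a receptor chain that was high in all B classes but plasma-like cells (Cd79a), to inhibitory receptors (Cd22 and Cd72) and to the central adaptor (Blnk), and because a searched motif lies in each. They are RefSeq sequences of GRCm38.p6, each running from 250 bases before to 50 bases after a transcription start, written 5′ to 3′ on the gene's strand, with motif matches in capitals.
Cd79a: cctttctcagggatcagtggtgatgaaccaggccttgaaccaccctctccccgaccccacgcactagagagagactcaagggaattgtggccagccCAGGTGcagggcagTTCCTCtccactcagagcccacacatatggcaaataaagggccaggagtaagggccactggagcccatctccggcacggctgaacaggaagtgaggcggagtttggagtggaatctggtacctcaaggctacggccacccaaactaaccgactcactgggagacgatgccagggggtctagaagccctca
Cd22: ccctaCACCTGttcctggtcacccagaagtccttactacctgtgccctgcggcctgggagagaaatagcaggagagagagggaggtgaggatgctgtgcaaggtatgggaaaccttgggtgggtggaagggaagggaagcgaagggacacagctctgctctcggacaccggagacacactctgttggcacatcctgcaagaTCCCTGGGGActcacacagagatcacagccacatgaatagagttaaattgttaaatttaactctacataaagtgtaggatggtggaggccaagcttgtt
Cd72: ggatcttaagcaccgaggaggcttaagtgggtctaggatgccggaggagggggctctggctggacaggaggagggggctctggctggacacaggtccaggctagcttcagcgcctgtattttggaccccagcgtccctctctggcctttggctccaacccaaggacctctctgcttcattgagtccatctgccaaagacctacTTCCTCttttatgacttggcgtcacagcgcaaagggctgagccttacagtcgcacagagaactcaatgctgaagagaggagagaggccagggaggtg
Blnk: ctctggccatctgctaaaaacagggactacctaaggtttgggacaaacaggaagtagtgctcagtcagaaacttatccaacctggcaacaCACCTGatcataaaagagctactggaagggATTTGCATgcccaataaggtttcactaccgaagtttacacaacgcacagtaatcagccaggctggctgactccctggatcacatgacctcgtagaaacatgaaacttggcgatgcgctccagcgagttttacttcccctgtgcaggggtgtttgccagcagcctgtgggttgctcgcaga
The Cd79a region lies at chr7:24897247-24897546 on the plus strand, Cd22 at chr7:30878979-30879278 on the minus strand, Cd72 at chr4:43454577-43454876 on the minus strand and Blnk at chr19:40994172-40994471 on the minus strand.

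4 motifs of factors known from B cells were searched on both strands: the octamer ATTTGCAT, the palindrome of EBF, the PU.1 core GAGGAA and the E-box CAGGTG bound by E2A. The promoter table covered 24 of the 33 members with 31 promoters, set beside 32851 promoters of all genes; none of the matches printed above overlaps another. The octamer lay in 2 member promoters (6.45%, in Blnk and Prkcb) and in 1.74% of all promoters. The EBF palindrome lay in 1 (3.23%, in Cd22) and in 0.904% of all. The PU.1 core lay in 12 (38.7%) and in 28.3% of all, and the E-box in 15 (48.4%) and in 20.2% of all. In Blnk the octamer begins 130 bases before the start site, in Cd22 the EBF palindrome begins 49 bases before it, and in Cd72 the PU.1 core begins 47 bases before it. These matches describe letters in a window and are neither binding sites nor causes of any level given here.

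Across B cell classes, both receptor chains were highest in cluster 3 and low in plasma-like cells by CPM, in each library. In cluster 3 Cd79a stood at 4076 CPM (wild-type) and 5085 CPM (knock-in). It followed at 2959 and 3696 CPM in follicular-like, 2667 and 3364 in activated-like, 2505 and 3293 in B-1-like, 1874 and 2604 in marginal zone-like and 505 and 794 in plasma-like cells. This order was the same in both libraries, and only activated-like and B-1-like cells had overlapping counting intervals. Cd79b varied more, with 1851 and 2174 CPM in cluster 3, 647 and 857 in B-1-like, 486 and 553 in follicular-like, 286 and 394 in activated-like, 191 and 318 in marginal zone-like and 210 and 271 in plasma-like cells. Marginal zone-like and plasma-like cells thus shared the bottom of the CPM order for Cd79b, with overlapping intervals in both libraries. Immunoglobulin transcripts took 48.9% and 43.0% of plasma-like UMIs, which lowers the CPM of both chains there. With immunoglobulin UMIs left out, the log2 ratio of plasma-like to follicular-like cells was −0.26 and −0.24 for Cd79b. For Cd79a it was −1.59 and −1.43.

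**Figure D1:**
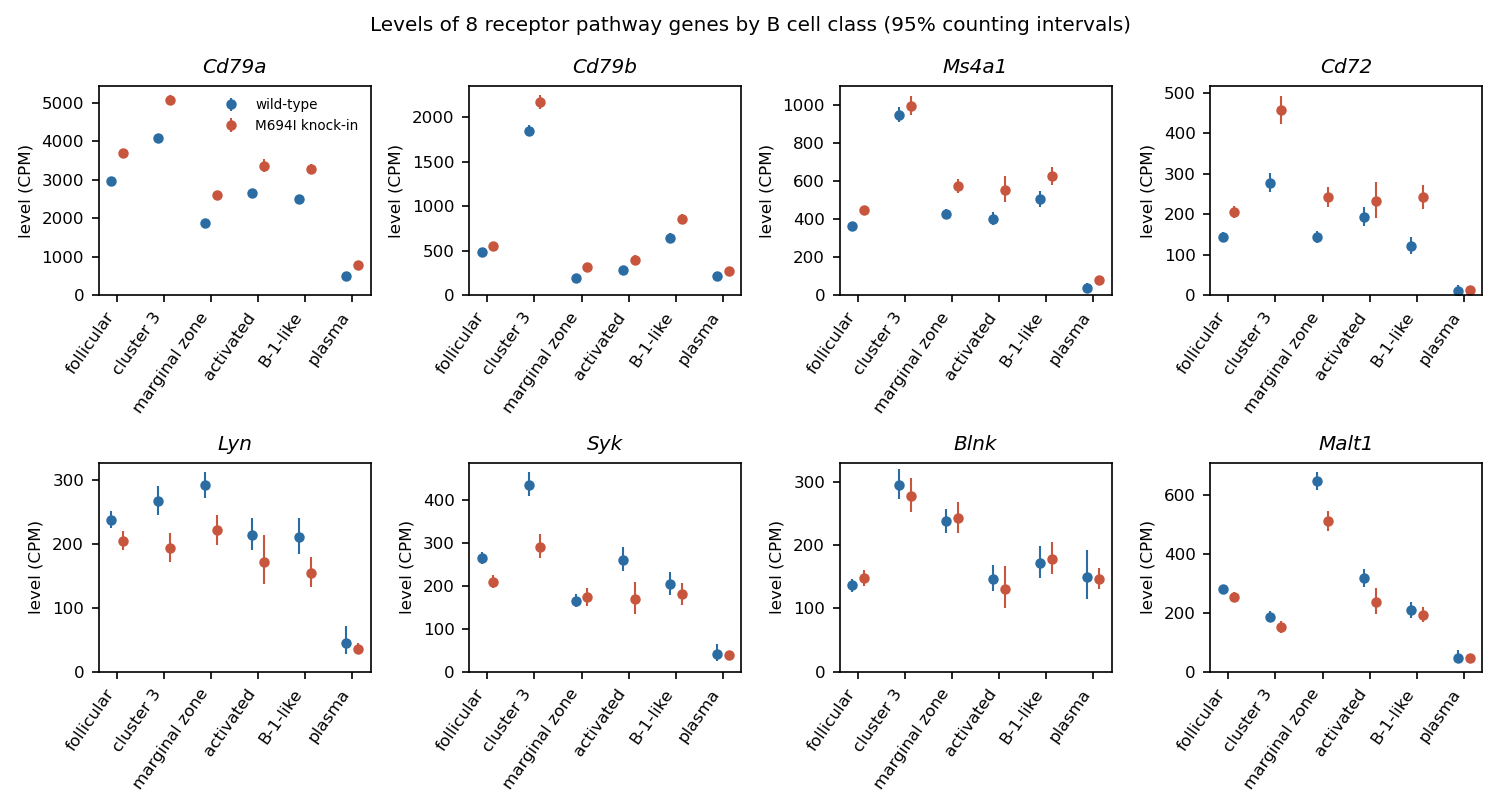
Levels of 8 members (y axis, CPM from 0) in 6 B cell classes (x axis) in the wild-type (blue) and knock-in (red) library; points are UMIs summed over the cells of a class, and bars are 95% intervals for counting error. Cd79a, Cd79b and Ms4a1 are highest in cluster 3 of both libraries, Malt1 is highest in marginal zone-like cells, and Blnk is as high in plasma-like as in follicular-like cells within the intervals.

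The share of cells with a Cd79a UMI, after each cell was thinned to 1000 UMIs, was 93.7% in wild-type and 95.9% in knock-in follicular-like cells and 32.4% and 47.7% in plasma-like cells. In T-like cells, which do not make Cd79a, it was 3.53% and 3.34%, which gives the background at this depth; without thinning, at median depths of 2908 and 2311 UMIs, it was 6.95% and 4.92%, against 99.1% and 98.7% in follicular-like cells. Thinning left out 16 and 41 follicular-like, 0 and 3 plasma-like and 10 and 67 T-like cells. Immunoglobulin took 48.9% and 43.0% of plasma-like UMIs and 0.978% and 1.22% of follicular-like UMIs. Thinned plasma-like cells therefore keep fewer UMIs of other genes, and the part of this in their shares was not tested.

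A member was counted as different between classes where its ratio to follicular-like cells was at least 1 on the log2 scale, with the same sign in both libraries. Cluster 3 had 4 members higher and 0 lower, where 4.02% of the 6841 genes measured were higher and 1.72% lower. These were Cd79b (log2 ratio 1.93 in wild-type and 1.97 in knock-in), Ms4a1, which codes for the surface protein CD20 (1.38 and 1.16), Siglecg, an inhibitory lectin (1.28 and 1.04), and Pik3cd, the catalytic subunit of the phosphoinositide 3-kinase of leukocytes (1.37 and 1.23). For Pik3cd the levels behind the ratio were 26.8 and 27.7 CPM in follicular-like and 69.1 and 65.2 CPM in cluster 3. Cd79b passed under each of the 10 alternative settings run for this comparison. The other 3 did not: with classes from a per-cell marker score none of them passed, with sub-clusters at resolution 2 Ms4a1 and Siglecg did not, and under a mitochondrial limit of 5% Pik3cd and Siglecg did not. Siglecg also missed the limit with at least 1000 UMIs and 500 genes per cell, with doublets kept, and with the members among the clustering genes.

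Marginal zone-like cells differed from follicular-like cells in 2 members that passed in both libraries, beside 2.57% of all genes higher and 1.88% lower. Malt1, the protease of the complex that links the receptor to NF-kB, was higher, at 647 and 511 CPM against 279 and 253 (log2 ratio 1.21 and 1.01). Hvcn1, a proton channel of B cells, was lower, at 103 and 72.1 CPM against 277 and 252 (−1.42 and −1.81). Cd79b fell short of the limit in 1 library (−1.35 and −0.80), as did Nfatc1, a calcium-regulated transcription factor (1.26 and 0.84). Hvcn1 passed under each of the 10 alternative settings, and Malt1 did not pass under 4 of them, among them the one that left out the cell with most Malt1 UMIs in each library.

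Activated-like cells, whose class was defined by response genes such as Mir155hg and Nfkbid, had 1 member higher and 0 lower, where 1.17% and 0.381% of all genes were. It was Swap70, a guanine nucleotide exchange protein that acts on Rac, at 669 and 596 CPM against 209 and 173 in follicular-like cells (log2 ratio 1.68 and 1.79). The other 32 members, kinases and adaptors included, did not pass the limit in both libraries. Swap70 did not pass when classes came from a per-cell marker score.

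B-1-like cells had 1 member higher and 3 lower, where 3.4% and 2.44% of all genes were. Nfatc1 was higher, at 183 and 174 CPM against 75.2 and 68.7 (log2 ratio 1.28 and 1.34). The adaptor Stap1 was lower, at 89.5 and 77.3 CPM against 306 and 245 (−1.77 and −1.66). Pik3ap1, the adaptor BCAP that links the receptor complex to phosphoinositide 3-kinase, stood at 68.2 and 67.4 CPM against 219 and 204 (−1.68 and −1.60). Rasgrp3, which activates Ras downstream of diacylglycerol, stood at 27.7 and 14.4 CPM against 70.0 and 43.5 (−1.34 and −1.59), on only 30 and 16 UMIs in the B-1-like cells. None of the 4 passed when classes came from a per-cell marker score, and Nfatc1 also missed the limit under 2 other settings.

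In plasma-like cells 26 of the 33 members were lower and 0 higher, but 48.9% of all genes were lower there and 5.81% higher. Immunoglobulin transcripts took 48.9% of the wild-type and 43.0% of the knock-in UMIs of that class, which lowers the CPM of every other gene. With immunoglobulin UMIs left out of both classes, 19 members were lower and 1 higher, against 14.5% and 12.3% of all genes. Among those lower on that scale were Cd72 (−2.97 and −3.24), Bank1 (−2.58 and −2.90), Pik3ap1 (−2.98 and −2.78) and Hvcn1 (−2.45 and −2.39). Cd81, a tetraspanin, was the member that was higher, at 1.52 and 1.30. Blnk stood at 1.09 and 0.78, Plcg2 at 0.26 and 0.18, and Cd79b at −0.26 and −0.24, so these 3 did not pass the limit in either direction in both libraries. The wild-type value of each rests on 34 cells.

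**Figure D2:**
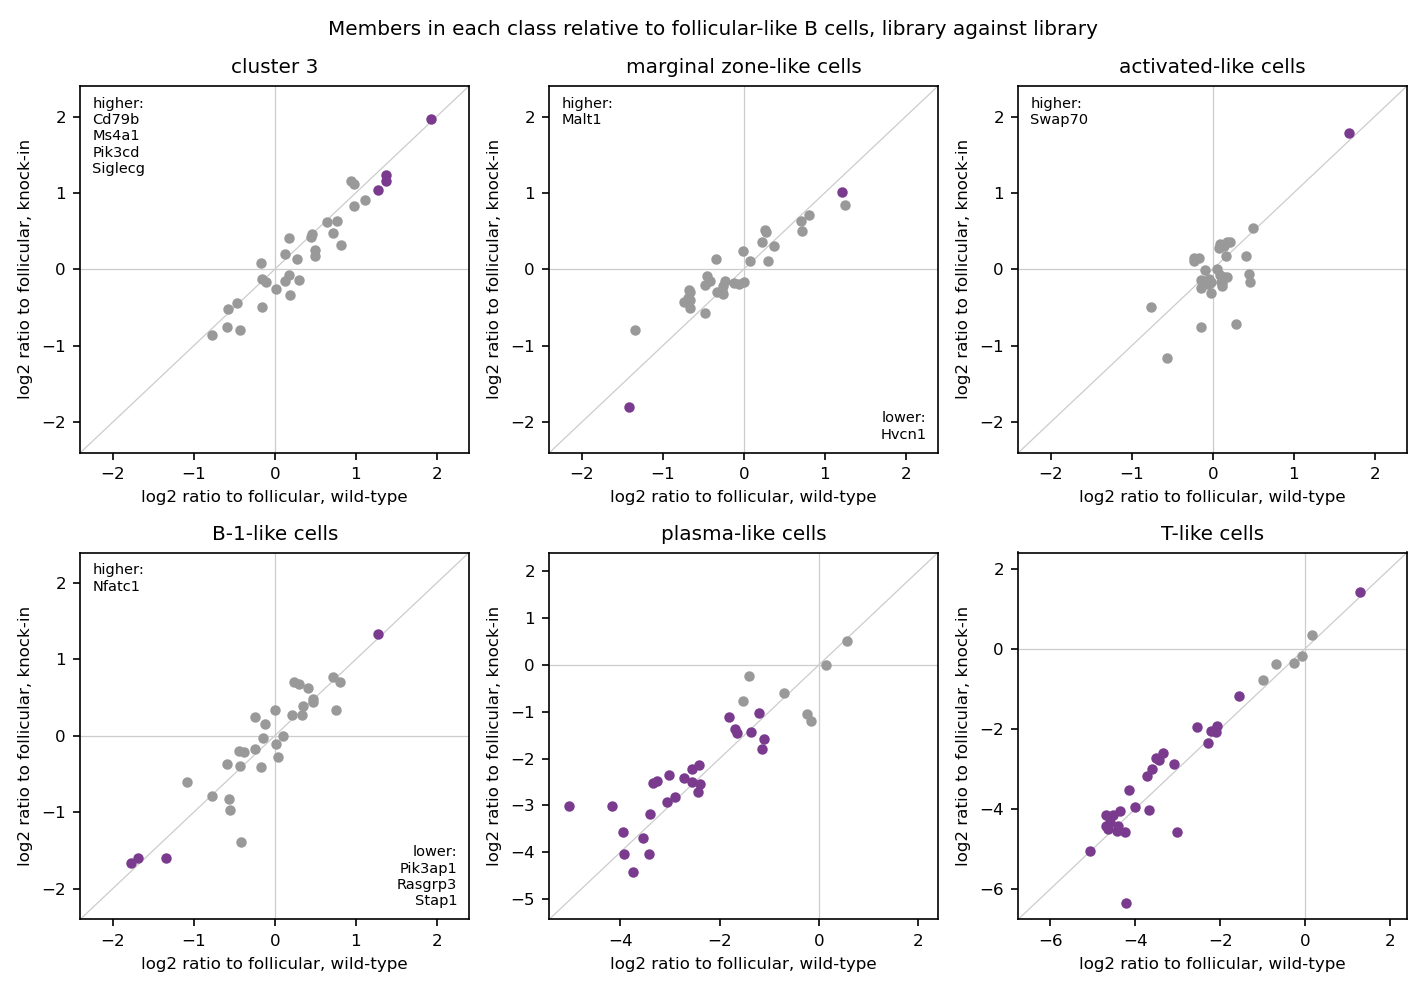
Log2 ratio of each member's level to that in follicular-like cells, in the wild-type library (x axis) and the knock-in library (y axis), for 5 classes of B cells and T-like cells; 1 point is 1 member, purple points are at least 1 in size with the same sign in both libraries, the grey line is equality, and names are given where few members passed. Many points lie near the line, but some lie off it, such as Prkcb in plasma-like and Pik3cd in activated-like cells. The members that pass number 4 in cluster 3, 2 in marginal zone-like, 1 in activated-like, 4 in B-1-like, 26 in plasma-like and 28 in T-like cells.

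The highest class of a member was the same in both libraries for 25 of the 33, and the lowest for 28. Cluster 3 was highest for 17 members in wild-type and 14 in knock-in cells, and plasma-like cells lowest for 28 and 30. Of the 4148 genes past the filter in all 6 classes, 57.8% had the same highest class in both libraries and 75.5% the same lowest; cluster 3 was highest for 32.4% and 32.7% of them, and plasma-like cells lowest for 75.6% and 72.2%. The libraries share the class definitions, so this is a description of how alike the 2 were.

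The 4 further clusters also differed in members. In cluster 0, led by Lars2, Stk17b and Bcl11a with Nr4a1, Fos and Junb among its leaders, 5 members were higher than in follicular-like cells and 0 lower, where 2.96% and 1.28% of all genes were. These were Ralgps2, an exchange factor for Ral (log2 ratio 1.31 and 1.38), the phosphatase Ptpn6, known as SHP-1 (1.29 and 1.18), Cd22 (1.12 and 1.16), Siglecg (1.12 and 1.23) and the ectoenzyme Cd38 (1.10 and 1.32). In cluster 10, led by Nr4a2 and Nr4a3, 6 members were higher and 1 lower, where 5.19% and 4.02% of all genes were, with Malt1 at 1.49 and 1.32 and Siglecg at 1.58 and 1.47. In cluster 8, led by the growth genes Dctpp1, Hspd1 and Mif, 0 were higher and 3 lower (5.42% and 7.92% of all genes): Syk (−1.35 and −1.20), Inpp5d (−1.14 and −1.15) and Hvcn1 (−1.45 and −1.78). Cluster 5 had 0 in either direction, where 0.395% and 0.0146% of all genes were.

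Outside the B cells, T-like cells had 27 of 33 members lower than follicular-like cells and 1 higher, where 7.86% of all genes were lower and 8.65% higher. The higher one was Pik3cd, at 65.7 and 73.4 CPM against 26.8 and 27.7. Bcl10 and Malt1, which T cells also use to reach NF-kB, stood at 154 and 154 and at 172 and 193 CPM, and did not pass. Monocyte-like cells, which carry Fc receptors that signal through Syk, held Lyn at 462 and 351 CPM, Syk at 310 and 232 CPM and the adaptor Grb2 at 240 and 247 CPM, while their Cd79a stood at 206 and 228 CPM. Plasmacytoid dendritic-like cells held Blnk at 436 and 409 CPM, in 26 and 35 cells, with Cd79a at 293 and 89.5 CPM. The class named macrophage-like from its markers (77 and 85 cells) held Cd79a at 1671 and 2354 CPM with a UMI in 72.7% and 81.2% of its cells, and Ms4a1 at 370 and 356 CPM, so its values are not those of macrophages alone and are not used further.

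Knock-in and wild-type levels were compared within each class. A log2 ratio of at least 0.32 in size counted as a difference, among genes with a mean of at least 10 CPM and at least 20 UMIs. In follicular-like cells 5 of the 33 members were higher in the knock-in library, where 15.2% of 6650 genes were, and 5 were lower, where 18.9% were. The median ratio of the members was −0.04 and that of all genes −0.02. The shares of members were thus near those of all genes. With TMM scaling the counts were 6 higher and 2 lower, where 16.9% and 17.2% of all genes were, and with classes from a per-cell score 9 and 7, where 19.6% and 25.3% were.

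The 3 highest ratios in follicular-like cells belonged to Lat2, Cd81 and Cd72. Lat2, the adaptor NTAL that resembles the T cell adaptor LAT, stood at 56.2 CPM on 290 UMIs in the wild-type and at 90.5 CPM on 333 UMIs in the knock-in library, a log2 ratio of 0.69 (0.45 to 0.92). Cd81 stood at 121 and 180 CPM (0.57, 0.41 to 0.73). Cd72, a C-type lectin that recruits Ptpn6, stood at 145 and 205 CPM (0.50, 0.35 to 0.65). Cd37, another tetraspanin, and Cd79a followed at 0.39 and 0.32. The 3 lowest belonged to Rasgrp3, at 70.0 and 43.5 CPM (−0.69, −0.97 to −0.42), Inpp5d, the lipid phosphatase SHIP-1, at 267 and 205 CPM (−0.38, −0.51 to −0.25), and Syk, at 265 and 209 CPM (−0.34, −0.47 to −0.21). Prkcb, a protein kinase C, and Stap1 were lower at −0.33 and −0.32. None of these 10 counting intervals holds 0.

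Because the follicular-like class was mixed differently in the 2 libraries, the ratios were also taken inside its clusters. In cluster 1 and cluster 2 respectively they were 0.49 and 0.89 for Lat2, 0.59 and 0.40 for Cd81, 0.55 and 0.64 for Cd72, 0.42 and 0.31 for Cd37, 0.30 and 0.36 for Cd79a, −0.74 and −0.61 for Rasgrp3, −0.34 and −0.28 for Inpp5d, −0.30 and −0.40 for Stap1, and −0.32 and −0.26 for Prkcb. These 9 kept their sign in both clusters with intervals that do not hold 0. Syk did so in cluster 2 (−0.33) but stood at −0.07 (−0.27 to 0.12) in cluster 1. Cluster 1 had 8 members higher, where 19.8% of all genes were, and 5 lower, where 20.8% were; cluster 2 had 9 higher, where 19.2% were, and 4 lower, where 18% were.

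**Figure D3:**
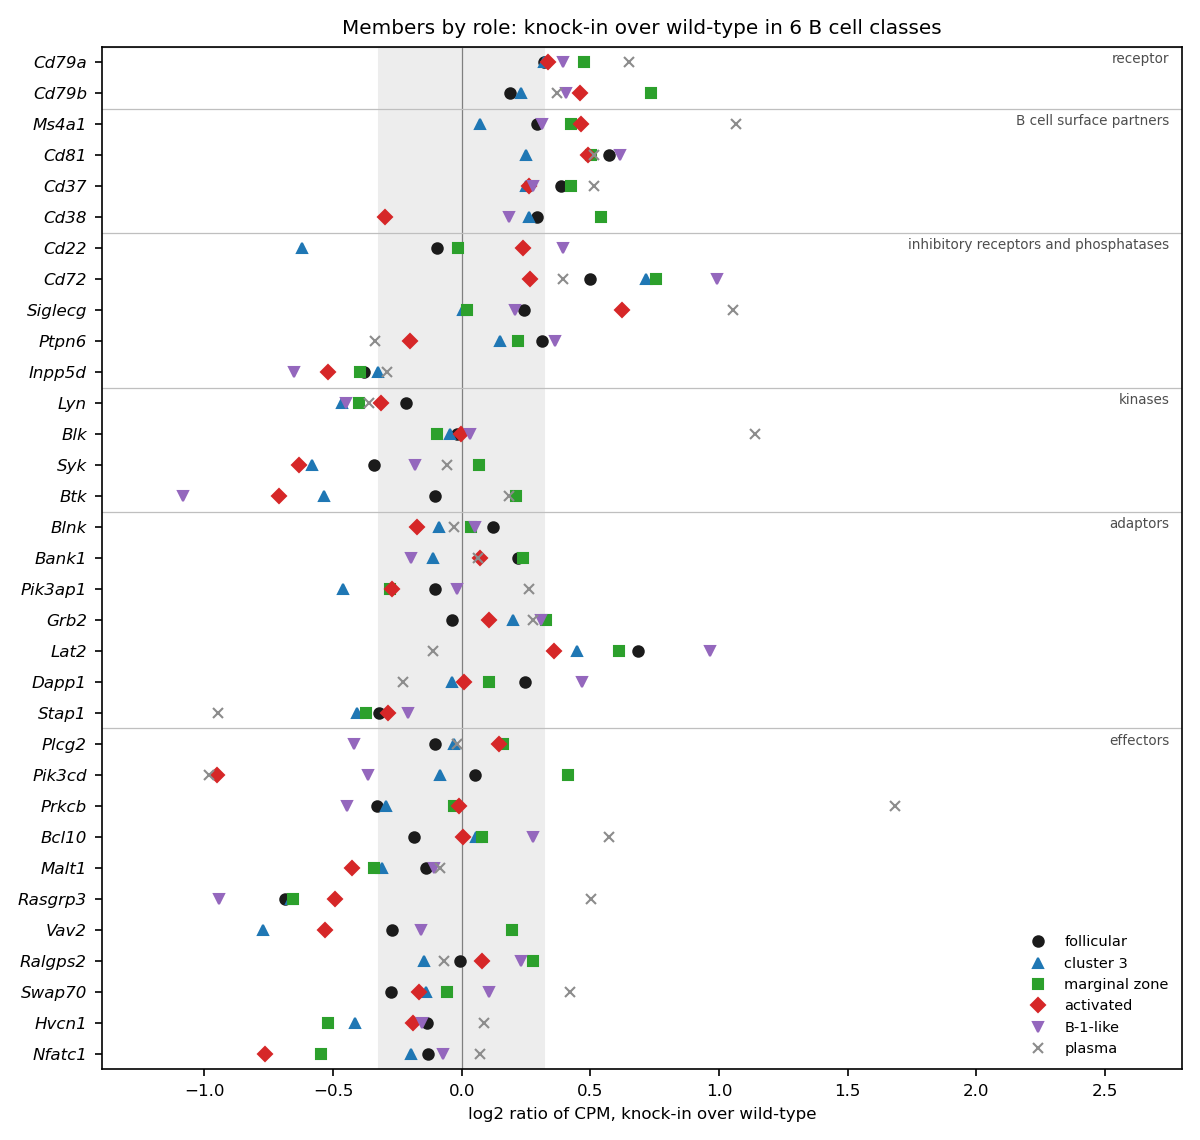
Log2 ratio of knock-in over wild-type level (x axis) for the 33 members grouped by role (y axis), with 1 symbol for each of 6 B cell classes, for members past the filter; the grey band marks ratios under 0.32 in size. The receptor chains, Cd81, Cd37 and Cd72 lie right of 0 in all 6 classes and Lyn, Inpp5d, Stap1 and Malt1 left of 0 in all 6, and the plasma-like value of Prkcb (cross at 1.68) rests on 2 wild-type UMIs.

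Of the 30 members past the filter in all 6 classes, 7 had a ratio above 0 in every class, and 4 below 0 in every class. Of the 4148 genes past the filter in all 6, 17.3% and 11.2% did so. The 7 higher ones were Cd79a, Cd79b, Ms4a1, Cd72, Cd81, Cd37 and Siglecg, and the 4 lower ones were Lyn, Inpp5d, Stap1 and Malt1. With the 4 further clusters added, Cd79a, Ms4a1, Cd72 and Cd37 stayed above 0 and Lyn and Inpp5d below 0 in all 10. Siglecg fell to −0.69, Cd81 to −0.07 and Cd79b to −0.03 in 1 further cluster each. Stap1 was above 0 in 2 further clusters and Malt1 in 1. Cd79a reached the limit in 5 classes, with 0.32 just short of it in cluster 3, and Cd79b in 4. Lat2 reached it in 5 classes and was at −0.11 in plasma-like cells. Inpp5d reached the lower limit in 5 classes and Lyn in 4, but Lyn stood at 0.0495 in marginal zone-like cells when cells were thinned to 1000 UMIs. Rasgrp3 was lower in 5 and higher in plasma-like cells, at 0.50 (−0.41 to 1.56). The plasma-like values did not hold when that class was chosen by a per-cell marker score: Cd79a then stood at −0.19, Cd79b at −0.32, Ms4a1 at −0.46 and Cd72 at −0.73 there.

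In cluster 3, 2 members were higher and 10 lower, where 19.8% and 24.6% of all genes were. Cd72 stood at 278 and 456 CPM (log2 ratio 0.72), Lat2 at 79.1 and 108 CPM (0.45) and Cd79a at 4076 and 5085 CPM (0.32, under the limit). The lowest were Vav2, an exchange factor for Rac, at 45.3 and 26.5 CPM (−0.77), Rasgrp3 at 50.5 and 31.9 CPM (−0.66) and Cd22 at 110 and 71.3 CPM (−0.62). Of the 4 kinases, Lyn (−0.46), Syk (−0.58) and Btk (−0.53) were lower and Blk was not (−0.05). The erythroid marker sum named above was 44.8 against 1342 CPM in these same cells, and its part in these ratios was not tested.

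Marginal zone-like cells had 10 members higher and 7 lower, where 16.7% and 23.6% of all genes were. Both receptor chains and all 4 surface partners were among the higher ones. Cd72 stood at 144 and 242 CPM (log2 ratio 0.76), Cd79b at 191 and 318 CPM (0.74) and Lat2 at 47.1 and 72.1 CPM (0.61). The lowest were Rasgrp3, at 74.0 and 47.0 CPM (−0.65), Nfatc1, at 180 and 123 CPM (−0.55), and Hvcn1, at 103 and 72.1 CPM (−0.52). The median over the members was 0.11 and that over all genes −0.05.

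Activated-like cells had 6 members higher and 8 lower, where 21.5% and 28.4% of all genes were. Counting intervals excluded 0 for 5 of the higher and 5 of the lower members. Siglecg stood at 61.4 and 94.7 CPM (log2 ratio 0.62), Cd81 at 117 and 164 CPM (0.49) and Ms4a1 at 401 and 554 CPM (0.46). The lowest were Pik3cd, at 32.6 and 16.8 CPM on 44 and 8 UMIs (−0.95, −2.25 to 0.15), Nfatc1, at 104 and 61.0 CPM (−0.76), and Btk, at 68.8 and 42.1 CPM (−0.71). The interval of Pik3cd holds 0, so that value is within counting error.

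B-1-like cells had 8 members higher and 7 lower, where 24.6% and 24% of all genes were. Counting intervals excluded 0 for 5 of the higher and 5 of the lower members. Cd72 stood at 122 and 242 CPM (log2 ratio 0.99, 0.68 to 1.30), Lat2 at 51.6 and 101 CPM (0.96) and Cd81 at 154 and 236 CPM (0.61). Btk was lowest, at 57.2 and 27.0 CPM on 62 and 30 UMIs (−1.08, −1.76 to −0.43), followed by Rasgrp3, at 27.7 and 14.4 CPM (−0.94), and Inpp5d, at 181 and 115 CPM (−0.65).

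The 4 further clusters were counted in the same way. Cluster 0 had 6 members higher, where 18% of all genes were, and 6 lower, where 16.9% were. Cluster 5 had 7 higher, where 21.3% were, and 6 lower, where 21.1% were. Cluster 8 had 11 higher, where 25% were, and 5 lower, where 25.8% were. Cluster 10 had 6 of 31 higher, where 28% were, and 4 lower, where 29.2% were. Counting intervals excluded 0 for 6 of the higher and 5 of the lower members in cluster 0, and for 7 and 4 in cluster 5. They did so for 7 and 1 in cluster 8 and for 5 and 1 in cluster 10.

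In plasma-like cells 30 members passed the filter, Cd22, Cd38 and Vav2 being too low. Of these 12 were higher and 4 lower, where 40.4% and 22.2% of all genes were. The wild-type counts were small: Prkcb had 2 wild-type and 33 knock-in UMIs (log2 ratio 1.68, −0.28 to 4.79), Blk 3 and 34 (1.14, −0.53 to 3.49) and Ms4a1 16 and 172 (1.07, 0.32 to 1.90). The lowest, Pik3cd (−0.98), Stap1 (−0.95) and Lyn (−0.36), had intervals that hold 0. Of the 16 members counted, Cd79a, Cd79b, Ms4a1 and Cd81 had intervals that exclude 0. With the class chosen by a per-cell marker score, 11 of the 12 higher members had a ratio below 0, Cd81 being the exception.

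Over all B-like cells together the 33 members summed to 9134 CPM (wild-type) and 9129 CPM (knock-in), a log2 ratio of −0.00 (−0.01 to 0.01). The roles differed: the summed ratio was 0.17 for the receptor chains, 0.18 for the surface partners, −0.02 for inhibitory receptors and phosphatases, −0.43 for the kinases, −0.11 for the adaptors and −0.30 for the effectors. Counted singly, 4 members were higher, where 11.3% of 6769 genes were, and 13 lower, where 28.8% were. The median was −0.13 for the members and −0.13 for all genes, so the members as a whole lay where the genes as a whole lay. The count of lower members depended on the scaling, with 8 under TMM factors, where 18% of all genes were lower, 6 with cells weighted equally, where 17.1% were, and 3 with cells thinned to 1000 UMIs, where 20.4% were. With immunoglobulin UMIs left out of the total, 9 were lower, where 20.3% of all genes were. The median was then −0.05 for the members and −0.05 for all genes. Immunoglobulin took 2.16% of B-like UMIs in the wild-type library and 7.45% in the knock-in library, with the larger plasma-like class in the knock-in library, and that share lowers the CPM of every other gene. In follicular-like cells, where it was 0.978% and 1.22%, the kinases summed to −0.21 and the surface partners to 0.38.

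The ratio of knock-in to wild-type also moved with the length of the gene in the genome, and the members' roles differ in length: all 4 kinases span over 40 kb, and both receptor chains under 5 kb. Cd79a spans 4.82 kb and Cd72 8.17 kb, whereas Inpp5d spans 100.2 kb, Lyn 135 kb and Prkcb 346 kb (GENCODE M21, GRCm38). Across the 33 members in follicular-like cells, Spearman's rho of ratio with span was −0.57 and Pearson's r with log span −0.59; across 6650 genes they were −0.32 and −0.28. Genes under 5 kb had a median ratio of 0.17, those of 5 to 15 kb 0.10, those of 15 to 40 kb −0.03, those of 40 to 100 kb −0.17 and those over 100 kb −0.16. The trend was present in T-like cells too, with rho −0.66 over 22 members and −0.26 over 6741 genes. These are correlations across genes of the same 2 libraries, which are not independent replicates.

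**Figure D4:**
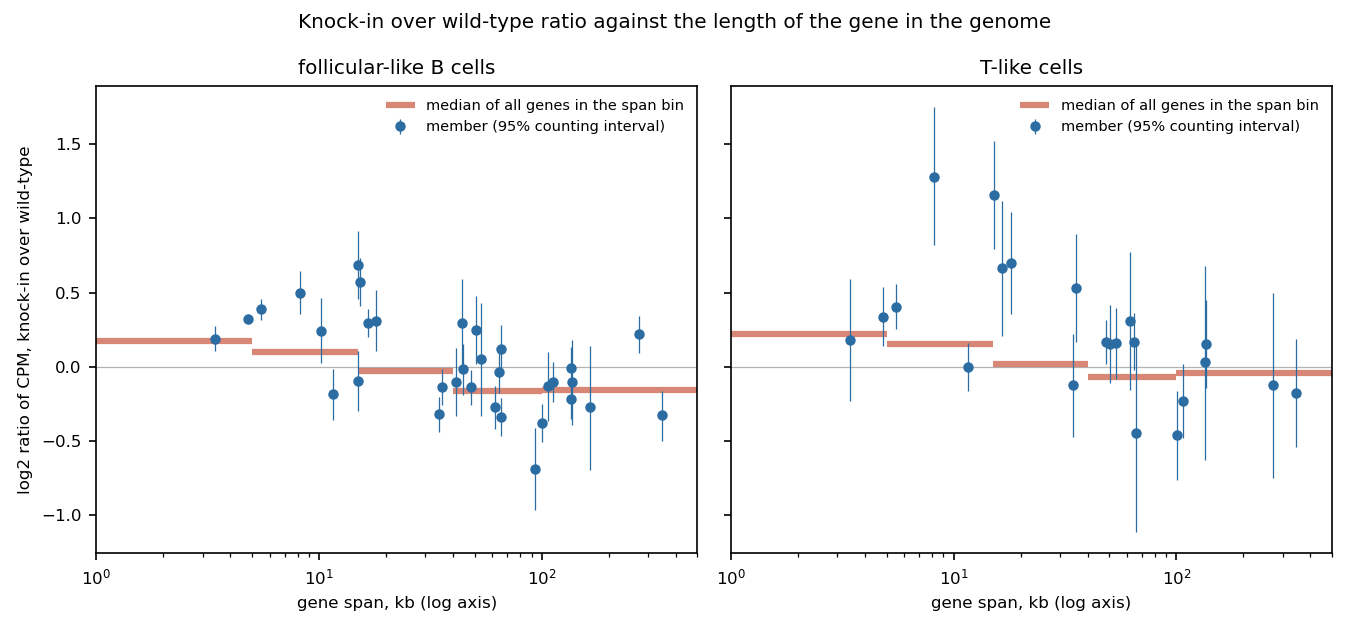
Log2 ratio of knock-in over wild-type level (y axis) against the span of the gene in kb (x axis, log axis) in follicular-like and T-like cells; blue points are members past the filter with 95% counting intervals, and red lines are medians of all measured genes in 5 ranges of span. The red lines step down from 0.17 for genes under 5 kb to −0.16 for genes over 100 kb in follicular-like cells, and from 0.22 to −0.04 in T-like cells.

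Each member was also set against genes of like span, by subtracting the median of its span range. In follicular-like cells 8 of the 33 members were then at least 0.32 above, where 14.3% of all genes were, and 1 was as far below, where 15.8% were. Lat2 stood at 0.72, Cd81 at 0.60, Cd38 at 0.46, Dapp1 at 0.41 and Cd72 at 0.40, and the 1 below was Rasgrp3 at −0.52. Marginal zone-like cells had 14 above and 3 below (18.8% and 18.9% of all genes), and B-1-like cells 8 and 3 (22.3% and 23.8%). Cluster 3 had 4 above and 7 below (19.6% and 20.9%), and activated-like cells 5 and 7 (23% and 26.2%). Plasma-like cells had 9 and 3 of 30 (29.1% and 29.6%), and all B-like cells together 7 and 1 (15.7% and 13.9%). The part of gene length, Malat1, depth or mitochondrial share in the genotype ratios was not tested, and with 1 library per genotype these cannot be told apart from it.

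Outside the B cells the direction differed between cell types. In T-like cells Cd79a stood at 87.7 and 111 CPM (log2 ratio 0.34), Cd72 at 12.6 and 30.7 CPM (1.28), Cd81 at 20.8 and 46.4 CPM (1.16) and Ms4a1 at 15.8 and 24.9 CPM (0.66). T-like cells as a whole had 7 of 22 measured members higher and 2 lower, where 23.3% and 15.1% of all genes were. In NK-like cells Cd79a stood at 50.6 and 177 CPM, with a UMI in 4.56% and 9.47% of cells. There 9 of 24 measured members were higher and 6 lower, where 19.9% and 30.7% of all genes were, and counting intervals excluded 0 for 5 and 5 of these. The summed receptor chains were lower in the knock-in library in plasmacytoid dendritic-like cells (log2 ratio −1.37, on 56 wild-type and 22 knock-in UMIs) and neutrophil-like cells (−0.66, on 86 and 39). The sum of all members was lower in neutrophil-like (−0.97), monocyte-like (−0.21), conventional dendritic-like (−0.26) and plasmacytoid dendritic-like cells (−0.25). In the same order, the median over single members was −0.49, −0.13, −0.33 and −0.12, and that over all genes −0.52, −0.03, −0.01 and −0.03. In neutrophil-like cells 59.6% of all genes were lower. The neutrophil markers summed there to 115315 CPM (wild-type) and 344386 CPM (knock-in), and their part in these ratios was not tested. What free RNA or captured pairs of cells add to the B cell ratios was not tested.

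The rest of the pathway was read from a list of 80 further genes, of which 65 were measured in follicular-like cells. There 7 were higher in the knock-in library, where 15.2% of all genes were, and 16 lower, where 18.9% were, with a median of −0.10 beside −0.02 for all genes. The highest were Vav3, an exchange factor, at 7.95 and 12.5 CPM (log2 ratio 0.65), the GTPase Rac2, at 254 and 398 CPM (0.65), and the kinase Map2k1, at 20.2 and 31.0 CPM (0.62). The lowest were the phosphoinositide 3-kinase subunits Pik3ca, at 43.6 and 26.1 CPM (−0.74), and Pik3cg, at 24.2 and 14.7 CPM (−0.72), and the calcineurin subunit Ppp3r1, at 15.9 and 9.78 CPM (−0.70). Over all B-like cells 3 of 65 were higher, namely Map2k2 (0.50), Rac2 (0.50) and Hras (0.33), where 11.3% of all genes were, and 24 lower, where 28.8% were, led by the kinase Fyn (−0.81), Nfatc3 (−0.64) and the calcium sensor Stim2 (−0.63).

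Genes known to be induced when the receptor signals were read from a list of 24. In follicular-like cells 21 were measured, with 4 higher in the knock-in library (15.2% of all genes), 1 lower (18.9%) and a median of 0.03. Counting intervals excluded 0 for only 3 of these 4 higher genes, and for the 1 lower. Fos was highest there, at 110 and 167 CPM (log2 ratio 0.61), with the survival genes Bcl2a1d at 14.9 and 20.6 CPM (0.47) and Bcl2a1b at 34.7 and 47.5 CPM (0.45). Irf4, a transcription factor induced in proportion to receptor signal, was lowest at 134 and 88.3 CPM (−0.61), followed by Nr4a3 (−0.27) and Egr3 (−0.26), which were within the limit. In cluster 0, of which Nr4a1, Fos and Junb are leading genes, 11 of 24 were higher, where 18% of all genes were, and 4 lower, where 16.9% were; the median was 0.29. In B-1-like cells 10 of 22 were higher, where 24.6% of all genes were, and 2 lower, where 24% were; the median was 0.29. NK-like cells, which have no B cell receptor, had 13 of 21 higher, where 19.9% of all genes were, and 5 lower, where 30.7% were; the median was 0.42. Over all B-like cells 5 of 24 were higher (11.3% of all genes) and 7 lower (28.8%), with Fos at 0.83, the chemokine Ccl4 at 0.66 and Bcl2a1d at 0.46 on one side and Nr4a3 at −0.86, Irf4 at −0.76 and Nr4a2 at −0.58 on the other. Several of these genes mark the activated class or lead cluster 0 or cluster 10, as Nr4a2 and Nr4a3 do, and so are not independent of these. The activated-like class held 6.06% of wild-type and 2.89% of knock-in cells, and cluster 10 held 0.789% and 0.369%. What these shares add to the ratios over all B-like cells was not tested.

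Of the 33 members, 7 lie on chromosome 7. Cd79a lies at chr7:24897381-24902197, Cd79b at chr11:106311341-106314762, Cd72 at chr4:43446462-43454628, Lat2 at chr5:134600022-134615025, Cd81 at chr7:143052739-143067934 and Rasgrp3 at chr17:75435896-75529054 (GENCODE M21, GRCm38). Another gene of the table overlaps 14 of them on the opposite strand, such as Tesk1 for Cd72 and Rfc2 for Lat2, and the strand setting of the counting is not given in these sources. Whether reads of these opposite-strand pairs were told apart depends on that setting and was not tested. Gm16014 overlaps Cd38 on the same strand.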

How the data were processed

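Whole spleen cells of 1 wild-type and 1 Mefv M694I knock-in library were sequenced with 10x 3' chemistry. The authors deposited raw UMI counts per gene and cell; the matrices were written by Cell Ranger 6.1.2 per the file headers, while mm10, Seurat 5.0.3 and Cell Ranger 7.1.0 are named per the submitters' processing notes. The libraries held 10449 and 9000 barcodes with 32797052 and 25193274 UMIs.

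Barcodes below 500 UMIs, below 200 genes or at 10% mitochondrial UMIs and above were dropped, and doublets called by Scrublet were removed (222 or 2.28% in wild-type, 174 or 2.03% in knock-in). Both libraries were clustered together with scanpy 1.11.5 and leidenalg 0.10.2 (Python 3.11.15, 2000 variable genes, 30 components, 15 neighbours, resolution 1, no batch integration). The variable genes were taken without the 33 members and without immunoglobulin, T cell receptor, ribosomal protein, mitochondrial, haemoglobin, sex-linked, interferon and stress genes. Classes were named from marker lists, with at least 3 markers each found in 10% of cells. B-like clusters were clustered again at resolution 1 and given a stage at a marker score of at least 0.7, a limit set after the clusters were seen. The cluster scored as transitional is called cluster 3, since erythroid markers outnumber its own among its leading genes. Counts were summed per library and class and divided by the class total. Intervals are 95% Poisson, binomial or conditional binomial intervals; UMIs of 1 library are not replicates. No test across libraries was possible. TMM factors came from edgeR 4.0.16 in R 4.3.3. Gene spans came from GENCODE M21, which matched 32235 of 32285 features.

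The members, gene lists and limits were chosen with earlier results of these data known. Any member could be named; in each stage the 3 highest and 3 lowest ratios are given in full, and the 3 highest and 3 lowest of the further pathway genes and the response genes. Alternatives changed the mitochondrial, depth and doublet filters, the clustering resolution, the way stages were called, thinning, cell weighting, scaling, the expression filter and single cells.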

Additional observations from a re-analysis of the deposited data

How the results depend on the processing

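No paired analysis was possible because each genotype has 1 library. Under a mitochondrial limit of 5%, 8 members were lower in follicular-like cells in place of 5, and 1 member in place of 2 passed in marginal zone-like against follicular-like cells. That count was also 1 with sub-clusters at resolution 2, with a per-cell marker score and without the highest cell of each library. Where cells were regrouped, cluster 3 stands for the cells scored as transitional. With the per-cell marker score 9 members in place of 5 were higher in follicular-like cells, and 1 cluster 3, 0 activated-like and 0 B-1-like calls against follicular-like cells were left of 4, 1 and 4. With cells thinned to 1000 UMIs there were 7 cluster 3 calls, 3 members in place of 13 were lower in B-like cells, and the median log2 ratio of the members in B-like cells was 0.0240 in place of −0.13. With cells weighted equally 6 were lower in B-like cells with a median of 0.0186, and 3 in follicular-like cells. With TMM factors these counts were 8 and 2, and with immunoglobulin left out of the total they were 9 and 4. The cause was not tested.

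Directions turned as follows. Under the 5% limit Pik3cd stood at −0.14 in marginal zone-like cells, Plcg2 at 0.57 and Pik3cd at 0.53 in B-1-like cells, and Dapp1 in B-1-like cells at −0.0162. With the per-cell score Pik3cd stood at 0.0380 in activated-like cells, and Cd22 at −0.19 and Dapp1 at −0.14 in B-1-like cells. In plasma-like cells that score gave −0.19 for Cd79a, −0.32 for Cd79b, −0.46 for Ms4a1, −0.73 for Cd72, −0.49 for Cd37, −1.28 for Blk, −1.05 for Prkcb, −0.0546 for Bcl10, −0.27 for Rasgrp3, −0.53 for Siglecg and −0.37 for Swap70. Thinning gave 0.0495 for Lyn in marginal zone-like cells and −0.73 for Cd22 in B-1-like cells, and equal weighting −0.26 for Cd72 in plasma-like cells. In follicular-like cells all 110 values of the 10 called members kept their sign, 89 still passed the limit, and 6 members passed under every alternative run. Other classes held less well. Members passing under every alternative were 5 of 17 in marginal zone-like, 3 of 14 in activated-like and 6 of 15 in B-1-like cells. They were 7 of 12 in cluster 3, 3 of 16 in plasma-like and 7 of 17 in all B-like cells. The lowest value of Lat2 in marginal zone-like cells was 0.0109. TMM factors for the comparisons against follicular-like cells were not run. The 34 wild-type plasma-like cells limit every value of that class.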
